A study of Mus musculus with 6 samples.

Results

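The nuclear genes for subunits of the respiratory chain and ATP synthase were followed in quadriceps muscle of mice with or without a copy of the human variant rs6190. Members were chosen by gene symbol alone: Nduf subunits of complex I, Sdha to Sdhd of complex II, Uqcr genes and Cyc1 of complex III, Cox4 to Cox8 genes of complex IV and Atp5 genes of complex V. The symbols matched 91 of the 33641 genes listed. After 6 pseudogene symbols were dropped, 85 members remained, of which 82 reached 1 TPM (transcripts per 1000000, a level per unit of transcript length) in at least 3 libraries, as did 11099 genes in all. The symbols also take in Cox7a2l, Atp5s and Atp5sl, which are not core subunits. Complexes were assigned by symbol, so complex I here holds Ndufa4, now known as a subunit of complex IV, and its relative Ndufa4l2. The rs6190 variant lies in NR3C1, the gene of the glucocorticoid receptor, and the mice carry its equivalent in the mouse gene. The homozygous group (rs6190 allele +/+) and the WT group (ref allele +/+) each held 3 libraries. All came from male mice 4 months old, littermates of heterozygous crosses, with whole quadriceps taken about 4 h after lights on. The variant was present in the whole animal, and the labels name no treatment. The level of an RNA does not check a coding variant, so the genotypes rest on the labels. Nothing states that each library came from its own mouse, so p-values measure the spread between these libraries.

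The respiratory chain sits in the inner mitochondrial membrane. Complex I takes electrons from NADH and complex II from succinate, and both pass them through ubiquinone to complex III, then through cytochrome c to complex IV, which reduces oxygen. Complexes I, III and IV pump protons, and complex V, the ATP synthase, uses the gradient to make ATP. Most subunits are encoded in the nucleus and a few core subunits in mitochondrial DNA, except that complex II is wholly nuclear. Slow and oxidative muscle fibres hold more mitochondria than fast glycolytic ones, and muscle uses its own isoforms of several complex IV subunits.

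The promoters are shown for members on which the results below turn: Sdha, the member with the smallest p-value; Cox6a1, the complex IV member with the largest fold change; and the muscle and broadly expressed forms of Cox7a and Cox8, whose ratios were compared. The sequences are the 250 bases before the RefSeq gene start in build GRCm38.p6, 5′ to 3′ on the strand of the gene. They lie at chr13:74350241-74350490 (-) for Sdha, chr5:115348959-115349208 (-) for Cox6a1, chr7:30183921-30184170 (+) for Cox7a1, chr9:79759854-79760103 (-) for Cox7a2, chr7:140900447-140900696 (-) for Cox8b and chr19:7217617-7217866 (-) for Cox8a. Capitals mark matches, on either strand, to any of the motifs searched, which were GCGCANGCG for NRF1, CCGGAAG for ETS factors such as GABP, AAGGTCA for oestrogen-related receptors, AAGATGGCG for YY1 and ACANNNTGT for the glucocorticoid receptor.
Sdha: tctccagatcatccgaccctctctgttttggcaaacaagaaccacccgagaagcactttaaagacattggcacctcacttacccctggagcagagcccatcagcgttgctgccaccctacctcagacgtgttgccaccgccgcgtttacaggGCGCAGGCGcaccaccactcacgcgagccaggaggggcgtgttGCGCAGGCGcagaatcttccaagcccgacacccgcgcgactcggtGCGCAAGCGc
Cox6a1: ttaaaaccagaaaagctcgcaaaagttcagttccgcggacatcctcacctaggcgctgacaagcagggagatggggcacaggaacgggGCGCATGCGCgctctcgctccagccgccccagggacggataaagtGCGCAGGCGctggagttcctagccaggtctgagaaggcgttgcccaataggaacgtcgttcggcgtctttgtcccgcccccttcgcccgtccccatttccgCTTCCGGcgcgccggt
Cox7a1: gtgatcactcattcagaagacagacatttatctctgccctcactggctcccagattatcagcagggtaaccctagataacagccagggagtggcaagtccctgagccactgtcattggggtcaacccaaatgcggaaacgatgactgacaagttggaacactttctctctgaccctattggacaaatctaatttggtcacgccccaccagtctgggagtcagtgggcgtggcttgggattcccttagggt
Cox7a2: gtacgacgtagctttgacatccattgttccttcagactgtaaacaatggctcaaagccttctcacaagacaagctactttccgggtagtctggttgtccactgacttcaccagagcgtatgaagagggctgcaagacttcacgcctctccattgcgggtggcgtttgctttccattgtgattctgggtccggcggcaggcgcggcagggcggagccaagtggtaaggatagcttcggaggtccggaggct
Cox8b: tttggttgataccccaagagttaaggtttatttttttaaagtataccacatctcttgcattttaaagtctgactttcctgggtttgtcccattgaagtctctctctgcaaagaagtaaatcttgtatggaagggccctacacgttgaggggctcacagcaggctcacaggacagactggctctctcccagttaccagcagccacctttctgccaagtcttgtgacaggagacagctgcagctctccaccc
Cox8a: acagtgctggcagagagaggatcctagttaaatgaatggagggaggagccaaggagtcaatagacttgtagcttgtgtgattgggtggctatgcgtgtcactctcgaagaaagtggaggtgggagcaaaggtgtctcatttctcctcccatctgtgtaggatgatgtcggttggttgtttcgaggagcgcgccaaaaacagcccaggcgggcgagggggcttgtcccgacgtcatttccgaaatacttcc

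Sdha held 3 NRF1 matches, which began 98, 55 and 10 bases before the start. Cox6a1 held 3 NRF1 matches, a pair of which overlap on opposite strands from -162 and -161 with the other at -117, and 1 ETS match at -16. The windows of Cox7a1, Cox7a2, Cox8b and Cox8a held no match to any of the 5 motifs, which says only that these letters are not in these windows. CpG dinucleotides numbered 21 in Sdha, 26 in Cox6a1, 14 in Cox7a2 and 11 in Cox8a, against 4 in Cox7a1 and 1 in Cox8b, the muscle forms.

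Of the 85 members, 66 had a RefSeq promoter entry, and the 64 of these that passed the filter gave 69 promoters. The NRF1 motif stood in 15 of the 69 (21.7%), against 5.16% of all 32851 promoters of the same length. It was in 7 of 34 promoters of complex I, 2 of 3 of complex II, 0 of 5 of complex III, 1 of 11 of complex IV and 5 of 16 of complex V. The ETS motif stood in 12 (17.4%, against 6.91%), the oestrogen-related receptor motif in 5 (7.25%, against 4.08%), the YY1 motif in 1 (1.45%, against 0.606%) and the glucocorticoid receptor motif in 0 (against 5.84%). The median GC content was 56% in the members and 52.4% in all promoters, with medians of 14 and 6 CpG. These shares are a description, and base composition, in which the members' promoters differed, was not matched.

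One WT library stood apart. Mitochondrially encoded transcripts took 14.3% of TPM in WT replicate 3 and 20.9% to 33.9% in the other 5 libraries. Genes above 0 numbered 16680 in that library and 17255 to 17814 in the others. Its slow-fibre markers (11 of 11 measured) summed to 1519 TPM, against 3670 and 5385 in the other WT libraries. In homozygous replicates 1 to 3 the sums were 6518, 15028 and 5684. The genotypes did not overlap for the sum, and homozygous replicate 2 stood far above the rest. Of the 11 genes, 6 had all homozygous values above all WT values (54.5%, against 34.7% of all genes). Mb, the highest of them, overlapped, at 3679 TPM in homozygous replicate 3 and 3805 in WT replicate 1. Its fast-fibre markers (13 of 13 measured) summed to 232218 TPM against 97060 to 131709 in the other 5 libraries. Within that list Myh1 and Myh2, the myosins of the more oxidative fast fibres, went the other way. Mylk2 was not raised in WT replicate 3 either, at 333 TPM against 284 to 543 in the others. Myh1 gave 1183, 1253 and 942 TPM in homozygous muscle and 464, 315 and 239 in WT, and Myh2 593, 728 and 478 against 361, 272 and 122, so WT replicate 3 was the lowest library for both. Schwann cell markers (6 of 6 measured) summed to 77.3, 106 and 29.1 TPM in homozygous muscle and 18.6, 25.3 and 16.2 in WT, without overlap. The 4 of them tested each had all homozygous values above all WT values, where 34.7% of all genes did. Immune and fibroblast markers summed to 9.15 and 88.2 TPM in WT replicate 3, against 29.5 to 42.9 and 167 to 239 in the other 5 libraries. Most of these sums was Lyz2 and Dcn, and the lists did not move as a whole. Dcn, Pdgfra and Lum were lowest in WT replicate 3, but Col1a1, Col1a2 and Col3a1 lay among the other libraries. Col3a1 gave 19.5 TPM there, against 7.31 to 25.9. Of the immune markers, Cd3e was highest in WT replicate 3, at 0.875 TPM. Endothelial markers summed to 34.1 to 52.7 TPM, blood markers to 476 to 851, adipocyte markers to 149 to 187 and brown adipocyte markers to 4.05 to 8.04, with Ucp1 at 0 in every library. Fabp4 alone gave 140 to 181 TPM of the adipocyte sum. Cfd ran from 3.78 to 17.5 TPM and Adipoq from 0.684 to 2.81, each highest in homozygous replicate 3. Ppargc1a, at 3.53 to 5.84 TPM, was most of the brown adipocyte sum. The part of fibre or cell makeup in the members' values was not tested. Depth is unknown, since TPM keeps no read totals. Over all genes tested the median log2 fold change, homozygous minus WT, was 0.26, and 0.20 without WT replicate 3. Changes are therefore also given relative to that median. With median centring of the libraries this shift was -0.04 and with quantile normalization -0.01.

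No subunit passed the test between genotypes, and the subunits as a set were nearly level while most genes tested ran higher in homozygous muscle. By limma on log2(TPM + 1), with Benjamini-Hochberg adjustment over 11099 genes, 0 of 82 members passed an adjusted p of 0.05, as did 0% of all genes tested. The smallest adjusted p was 0.201 among members (Sdha) and 0.107 among all genes. At an unadjusted p under 0.05, 1 member was higher (Sdha) and 0 were lower, where 23.7% of all genes were higher and 0.55% lower. Fold changes were positive in 52 of 82 members, with a median log2 fold change of 0.06, against positive values in 9526 of 11099 genes. In all, 78 of 82 lay below the median of all genes.

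The 3 homozygous values all lay above the 3 WT values in 6 of 82 members, a share of 7.32%, where the share over all genes tested was 34.7%. No member had all homozygous values below, where 0.73% of all genes did. The 6 members were Sdha, Ndufb5, Ndufs4, Cox8a, Atp5sl and Atp5l. With median centring of the libraries the split turned, with 0 members above and 3 below (Ndufa6, Ndufa10 and Ndufv3, named after their values were seen), where 754 of all genes lay above and 930 below. With quantile normalization 1 member lay above and 3 below, where 894 of 11099 genes lay above and 815 below. Without WT replicate 3 and with TPM as deposited, the count above was 18 of 82 (22.0%) and the share over all genes 42.1%. Fold changes were then positive in 79 members, with a median log2 fold change of 0.16. The exceptions were Ndufv3, Ndufa12 and Atp5s, at values from -0.03 to 0. Relative to all genes tested, the members' median was -0.20 with 6 libraries and -0.04 without WT replicate 3.

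**Figure D1:**
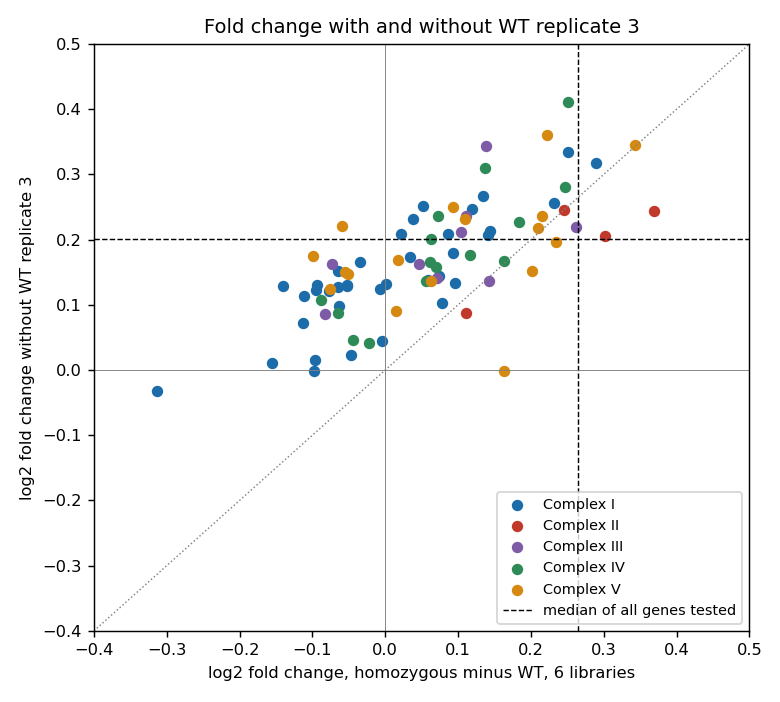
Each point is 1 of 82 subunit genes, with its log2 fold change (homozygous minus WT) from 6 libraries on the x axis and without WT replicate 3 on the y axis, coloured by complex. Dashed lines mark the medians of all genes tested, 0.26 and 0.20, and the dotted diagonal marks equal values. With 6 libraries 52 points lie right of 0, and without WT replicate 3 79 lie above it.

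The libraries ranked alike for most subunits, and not by genotype. WT replicate 3 was the highest library for 47 of 82 members and homozygous replicate 1 for 29. WT replicate 2 was the lowest for 60 and homozygous replicate 3 for 11. Over all genes tested WT replicate 3 went the other way, as the lowest library for 6190 of 11099 and the highest for 1226. The 82 members together made up 5.22%, 4.74% and 4.34% of TPM in homozygous replicates 1 to 3, and 4.53%, 3.98% and 5.54% in WT replicates 1 to 3. The genotypes overlapped, and the highest and the lowest value were both WT. With mitochondrially encoded rows left out of the total the shares were 6.60%, 6.52% and 5.81% against 6.14%, 6.02% and 6.47%. The ratio of the highest to the lowest library fell from 1.39 to 1.14. The group means were then 6.31% ± 0.433 and 6.21% ± 0.233 (SD, n = 3 each). In bulk muscle, fewer cells of a type and less RNA per cell cannot be told apart.

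**Figure D2:**
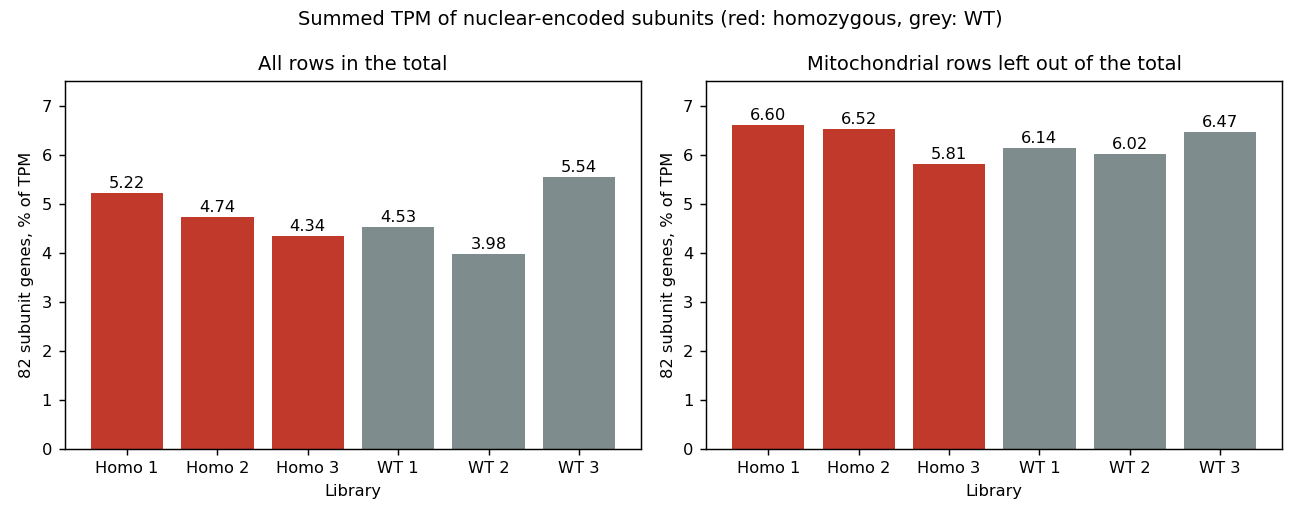
Bars give the summed TPM of 82 subunit genes as a percent of all TPM in each library (left) and of TPM outside mitochondrially encoded rows (right), with homozygous libraries in red and WT in grey, 1 library per bar and no error. The libraries span 3.98% to 5.54% on the left and 5.81% to 6.60% on the right, with the genotypes overlapping in both.

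Complex I, the NADH dehydrogenase, showed a median log2 fold change of 0.00 over 37 genes. By symbol these include Ndufa4, at 1211 to 1455 TPM, and Ndufa4l2. The median was -0.27 relative to all genes tested and -0.07 relative to them without WT replicate 3. Fold changes were positive in 18 genes and negative in 19, and 36 lay below the median of all genes. Summed TPM was 16459, 14643 and 13862 in homozygous muscle and 14426, 12754 and 18154 in WT, so the homozygous range lay inside the WT range. WT replicate 3 was the highest library for 28 of the 37 genes. Of the NADH-oxidising flavoprotein subunits, Ndufv1, which binds FMN, gave 305, 299 and 236 TPM against 249, 218 and 245, and its fold change on the log2 scale was 0.23 (SE 0.150, limma adjusted p = 0.333). Ndufv2, an iron-sulfur subunit beside it, gave 485, 402 and 369 TPM against 397, 363 and 498 with a log2 fold change of 0.00. These ranges overlap in both genes.

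Ndufv3, an accessory subunit of the same module, had the lowest log2 fold change of all members at -0.31 (SE 0.240, limma adjusted p = 0.404). Its TPM was 339, 282 and 277 in homozygous muscle and 305, 305 and 547 in WT, so that 1 WT library made the difference. Without WT replicate 3 its log2 fold change was -0.03. Ndufv3 has a short and a long coding form. The short coding form (493 nt) held 98.1% of its TPM and gave 332, 274 and 271 TPM against 299, 298 and 541.

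Ndufs1, Ndufs3, Ndufs7 and Ndufs8 belong to the arm of complex I that carries electrons towards ubiquinone. Their log2 fold changes were 0.14 for Ndufs1, 0.12 for Ndufs3, -0.05 for Ndufs7 and 0.04 for Ndufs8, with limma adjusted p-values from 0.578 to 0.908. Without WT replicate 3 all 4 were positive, from 0.13 to 0.25. Ndufs8, which holds clusters near the ubiquinone end, gave 184, 159 and 148 TPM against 157, 122 and 208. The WT libraries bracket the homozygous ones. Ndufs3 is uncertain, since the table holds pairs of its transcripts with the same values.

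Ndufb5, an accessory subunit of the membrane arm (chr3:32736990-32751566, build mm10), had the highest log2 fold change in complex I. Its TPM was 680, 689 and 647 in homozygous muscle and 555, 523 and 571 in WT. The groups did not overlap, and WT replicate 3 did not stand out in this gene sum, but it did in the single forms. The main coding transcript gave 372, 353 and 336 TPM against 292, 286 and 373, so it overlapped and WT replicate 3 was the highest. A coding form of 574 nt was lowest in WT replicate 3, at 111 TPM against 163 to 223 in the other libraries. The log2 fold change of the gene sum was 0.29 (SE 0.128, limma adjusted p = 0.212), or 0.02 above the median of all genes, and 0.32 without WT replicate 3. Ndufs4, an accessory subunit whose loss causes Leigh-like disease, gave 155, 143 and 147 TPM against 125, 110 and 139, again without overlap, with a log2 fold change of 0.25 (limma adjusted p = 0.264). Ndufb4 and Ndufa12, the accessory subunits with the smallest p-values downward after Ndufv3, had log2 fold changes of -0.16 and -0.10 (limma adjusted p = 0.585 and 0.669). Without WT replicate 3 these were 0.01 and 0.00.

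Complex II, succinate dehydrogenase, showed another pattern, in which all 4 genes had positive fold changes and all were highest in homozygous replicate 1. Its median log2 fold change was 0.27, or 0.01 relative to all genes tested, where the other complexes stood at -0.27 to -0.16. These values were, without WT replicate 3, 0.02 for complex II and -0.07, -0.04, -0.03 and -0.03 for complexes I, III, IV and V, so most of that distance rested on 1 library. With array weights or a pseudocount of 0.1 the value for complex II was -0.070 or -0.046. Summed TPM was 1469, 1313 and 1097 in homozygous muscle and 1185, 1045 and 994 in WT, with homozygous replicate 3 below WT replicate 1. No gene of complex II was highest in WT replicate 3. Complex II took 2.81%, 2.77% and 2.53% of all members' TPM against 2.62%, 2.63% and 1.79%, and the low value was WT replicate 3. Without WT replicate 3 the ratio of the group means of that share was 1.03, in place of 1.15. The difference between complexes was not tested.

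Sdha, the FAD-bearing catalytic subunit that oxidises succinate (chr13:74322254-74350280, build mm10), gave 334, 314 and 279 TPM in homozygous muscle and 259, 262 and 200 in WT. Every homozygous library lay above every WT library, and WT replicate 3 was the lowest. Its log2 fold change was 0.37 (SE 0.156, limma adjusted p = 0.201), or 0.10 above the median of all genes, and 0.24 without WT replicate 3. Sdhc, a membrane anchor, gave 318, 310 and 249 TPM against 254, 249 and 206, with a log2 fold change of 0.30 (limma adjusted p = 0.254). Homozygous replicate 3 fell among the WT values. Sdhb, the iron-sulfur subunit, gave 558, 491 and 387 TPM against 472, 337 and 398 with a log2 fold change of 0.25, and Sdhd, the other anchor, 259, 198 and 182 against 200, 197 and 189 with 0.11. Both ranges overlap.

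Complex III, which passes electrons from ubiquinol to cytochrome c, had a median log2 fold change of 0.10 over 9 genes, or -0.16 relative to all genes tested. Summed TPM was 6846, 6154 and 5628 against 5767, 5074 and 7281, and no gene separated the genotypes. The highest log2 fold change was 0.26 for Uqcrc2, a core subunit, at 300, 263 and 219 TPM against 223, 221 and 203 (limma adjusted p = 0.291). Homozygous replicate 3 lay among the WT libraries. The lowest was -0.08 for Uqcr11, a small accessory subunit, at 1037, 923 and 874 TPM against 959, 822 and 1262, where the WT range held all homozygous values. Uqcrfs1, the Rieske iron-sulfur protein, had 0.14, Cyc1, cytochrome c1, 0.10 and Uqcrc1, the other core subunit, 0.07. The table lists Uqcrc1 transcripts with identical values under separate entries, so its level is uncertain.

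Complex IV, cytochrome c oxidase, had a median log2 fold change of 0.07 over 15 genes, or -0.20 relative to all genes tested, and all 15 genes lay below the median of all genes. Summed TPM was 13033, 12144 and 10950 against 11558, 10134 and 13302. The remaining 3 of 18 members did not pass the filter. They were Cox6b2, listed at 0 to 1.18 TPM, Cox7b2, at 0 to 0.140 TPM, and Cox8c, listed at 0 in every library. Among subunits present in one main form, log2 fold changes were 0.07 for Cox5b, which binds zinc, -0.02 for Cox5a, 0.06 for Cox6b1 and 0.06 for Cox7b, with limma adjusted p-values from 0.804 to 0.931.

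Muscle forms stood above their partners in Cox6a, Cox7a and Cox8, with TPM compared per unit of transcript length. Over the 6 libraries, Cox6a2, the heart and muscle form, stood 40.6 times above Cox6a1, the broadly expressed form. The ratio was 26.5 for Cox8b over Cox8a, 476 for Cox4i1, the general form, over Cox4i2, a form known in lung, and 2.70 for Cox7a1, the muscle form, over Cox7a2. Cox6a2 gave 1704, 1701 and 1512 TPM against 1560, 1345 and 1639 and Cox6a1 45.9, 40.2 and 40.1 against 30.7, 32.0 and 44.1. The log2 fold changes were 0.12 and 0.25, the second being the largest in complex IV. WT replicate 3 stood among the homozygous libraries for Cox6a1, which without it had a log2 fold change of 0.41 (limma adjusted p = 0.166). Cox4i1 had a log2 fold change of 0.07 and Cox4i2, at 1.05 to 3.43 TPM, -0.07.

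A ratio of 2 genes within a library does not move with the scaling of that library, and 7 such pairs were tested over 3 against 3 libraries. The smallest p that this exact permutation test can give is 0.1, so none could pass 0.05. Cox7a1 gave 1006, 925 and 811 TPM against 883, 808 and 1270, and Cox7a2 397, 370 and 330 against 323, 268 and 422. Each overlapped between genotypes, but their ratio was 2.53, 2.50 and 2.45 in homozygous muscle and 2.73, 3.01 and 3.01 in WT, with no overlap. The log2 ratio differed by -0.22 (exact two-sided permutation p = 0.1, adjusted over 7 pairs 0.35) and by -0.20 without WT replicate 3. The muscle form of Cox8 went in the same direction, with Cox8b over Cox8a at 27.4, 21.1 and 23.7 against 31.7, 25.1 and 31.8 and a log2 difference of -0.29 (exact permutation p = 0.2, adjusted 0.467). Its ranges overlap, although Cox8a alone did not, at 73.9, 88.3 and 70.4 TPM against 62.0, 64.8 and 68.0.

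Ndufa4, named for complex I but now known as a subunit of complex IV, outnumbered Ndufa4l2, its hypoxia-induced relative, 280 times. The ratio was 285, 283 and 302 in homozygous muscle and 270, 279 and 262 in WT, without overlap, and the log2 ratio differed by 0.10 (exact two-sided permutation p = 0.1, adjusted 0.35). On protein-coding transcripts only that difference was 0.0032. Ndufa4l2 lay at only 4.26 to 5.16 TPM. In the other 4 pairs the ratios overlapped between genotypes. These pairs were Cox6a2 to Cox6a1 (log2 difference -0.13), Cox4i1 to Cox4i2 (0.13) and the genes of the ATP synthase c subunit, of which Atp5g1 was set against both Atp5g2 (-0.11) and Atp5g3 (0.05). Adjusted exact permutation p-values were 0.7 in each.

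Complex V had a median log2 fold change of 0.09 over 17 genes, or -0.17 relative to all genes tested. Summed TPM was 14390, 13112 and 11910 against 12377, 10745 and 15717. In the catalytic head, Atp5a1 and Atp5c1, the alpha and gamma subunits, each had a log2 fold change of 0.21 (limma adjusted p = 0.396 and 0.355). Atp5c1 gave 973, 914 and 807 TPM against 810, 714 and 795, with homozygous replicate 3 just under WT replicate 1. Atp5b, the beta subunit and the member with the highest level, gave 2292, 2141 and 1815 TPM against 1991, 1694 and 3245. Its log2 fold change was -0.10 (SE 0.256, limma adjusted p = 0.807), and 0.17 without WT replicate 3, the library that lies above all others here.

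The c ring turns as protons pass. Its 3 genes encode the same mature protein, and Atp5g1 gave 1226, 1226 and 1147 TPM against 1058, 985 and 1316, with log2 fold changes of 0.11 for Atp5g1, 0.22 for Atp5g2 and 0.06 for Atp5g3. Atp5l, subunit g of the membrane part, gave 1108, 1099 and 1092 TPM against 1016, 905 and 886. The homozygous libraries lay close together and above all WT libraries, with a log2 fold change of 0.24 (limma adjusted p = 0.301). Atp5sl, also known as Dmac2 and not a core subunit, gave 50.3, 38.4 and 32.4 TPM against 30.8, 31.3 and 31.2. The groups did not overlap, homozygous replicate 1 was far the highest, and the log2 fold change was 0.34 (SE 0.169, limma adjusted p = 0.239).

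**Figure D3:**
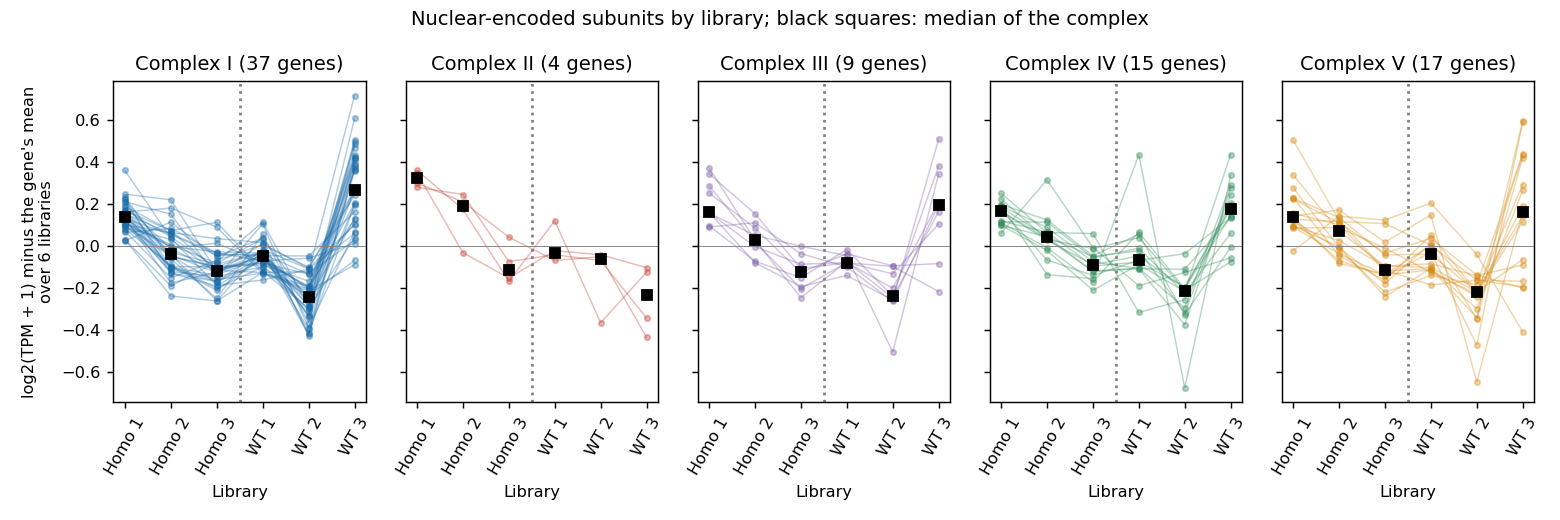
Each line is 1 subunit gene, with log2(TPM + 1) minus its mean over 6 libraries on the y axis, by library on the x axis and by complex in panels. Lines only join values of the same gene, black squares are medians over the genes of a complex and the dotted line parts homozygous from WT. In complexes I, III, IV and V the medians of WT replicate 3 and homozygous replicate 1 are the highest pair, and in complex II WT replicate 3 has the lowest.

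The rise in WT replicate 3 went with short transcripts. Members are short, with a median transcript length of 678 nt against 2264 nt for all genes tested, and complex II is the complex with the longest, at a median of 1250 nt. WT replicate 3 was the highest library for 22 of the 28 shortest members (up to 578 nt), 15 of 26 of middle length and 10 of the 28 longest (over 905 nt). Its median log2 distance from the mean of WT replicates 1 and 2 was 0.53, 0.39 and 0.11 in these classes. Over all genes in the same classes it was 0.28, 0.16 and -0.23. Across the 82 members, which share the libraries, Spearman's rho of length with that distance was -0.47. With the log2 fold change it was 0.40, and 0.13 once WT replicate 3 was left out. With a trend on transcript length removed from every library, the complex medians relative to all genes tested ran from -0.16 to 0.08. The part of transcript length and of RNA quality in these results was not tested.

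**Figure D4:**
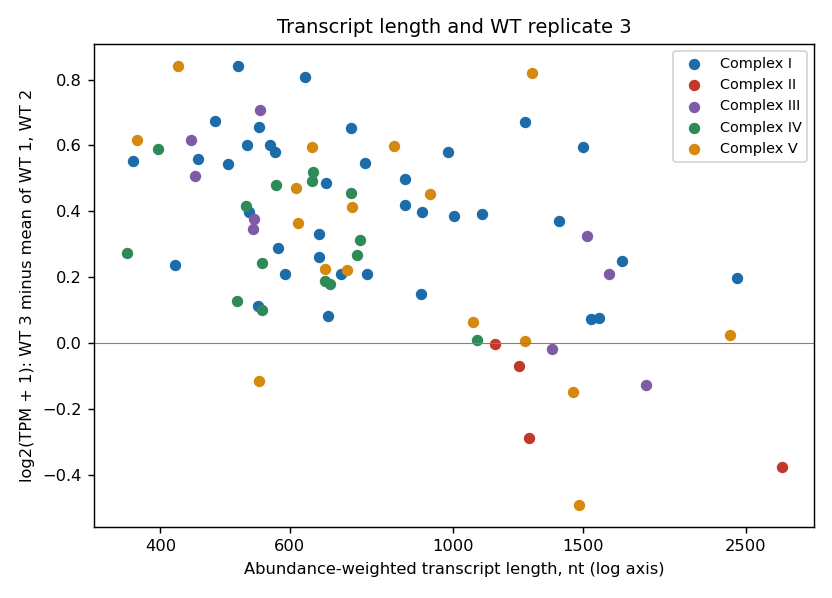
Each point is 1 of 82 subunit genes, with the abundance-weighted transcript length in nt on a log x axis and, on the y axis, log2(TPM + 1) of WT replicate 3 minus the mean of WT replicates 1 and 2. Shorter genes sit higher, with class medians of 0.53, 0.39 and 0.11 from shortest to longest, and the complex II genes lie at or below 0.

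Forms of a gene did not move alike in WT replicate 3. Transcripts that the annotation types as other than protein coding took 8.36% to 8.87% of the members' TPM in 5 libraries and 12.5% in WT replicate 3. Those centred in the 3′ part of the main coding transcript, past its midpoint, took 5.08% to 5.68% in 5 libraries and 8.92% in that one, while those centred before the midpoint took 3.16% to 3.51% in all 6. Of 56 such transcripts at a mean of at least 5 TPM, WT replicate 3 was the highest library for 26 and at least 2-fold above the mean of the others for 12. How a transcript-level estimate divides reads among overlapping forms was not tested.

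Atp5b, Ndufs1 and Sdhc are given as examples, chosen after their values were seen. The main coding transcript of Atp5b (1916 nt) gave 1505, 1412 and 1217 TPM in homozygous muscle and 1112, 1192 and 849 in WT, so that the groups did not overlap, whereas the gene sum did. A 478 nt form near its 3′ end gave 720, 643 and 543 TPM against 802, 438 and 1918, and a 600 nt form 8.12, 9.20 and 8.18 against 31.9, 23.2 and 448. These short forms made WT replicate 3 the highest library for Atp5b. For Ndufs1 the main transcript (2661 nt) gave 91.9, 87.5 and 67.3 TPM against 75.8, 93.0 and 65.5, which overlap. An 826 nt retained intron form gave 47.1 TPM in WT replicate 3 and at most 3.12 in the other 5 libraries. In Sdhc a 298 nt form near the 5′ end went the other way, at 45.5, 59.5 and 34.1 TPM against 34.1, 38.7 and 8.93. With genes summed over coding transcripts only, 8 of 82 members had all homozygous values above all WT values and 0 below, where 36.6% of all genes lay above.

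**Figure D5:**
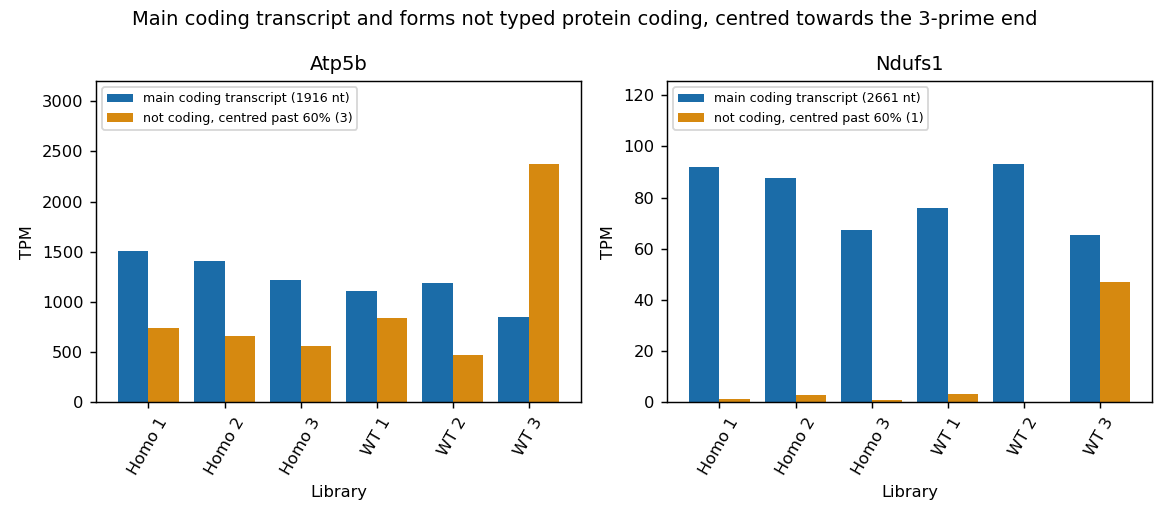
Bars give TPM by library for the main coding transcript (blue) and for the summed forms not typed protein coding that are centred past 60% of its length (orange; 3 forms in Atp5b and 1 in Ndufs1), 1 library per pair of bars. In WT replicate 3 the orange sum reaches 2371 TPM in Atp5b and 47.1 in Ndufs1, above every other library, while the blue bar is the lowest of the 6.

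Mitochondrially encoded subunits stood above their nuclear partners in every library but by very different factors. The ratio of summed TPM was 4.01, 5.77 and 5.82 in homozygous muscle and 5.79, 8.53 and 2.57 in WT, with the genotypes overlapping. In complex V, where mt-Atp6 and mt-Atp8 are the mitochondrial genes, it was 2.13, 4.84 and 4.70 against 4.57, 9.40 and 1.86. In complex III, where mt-Cytb is the single one, it was 4.00, 4.18 and 4.30 against 4.40, 4.56 and 2.43. WT replicate 3 was lowest throughout. Of 13 mitochondrially encoded subunits, 8 had positive and 5 negative fold changes and 0 passed the limma test or an unadjusted p under 0.05, with a median log2 fold change of 0.05. That median was -0.23 without WT replicate 3, so its sign rested on 1 library.

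Other genes of the pathway had positive fold changes more often than negative, as genes in general did, without any passing the limma test. Of 49 assembly factors measured, 38 had positive fold changes and 11 negative, with a median log2 fold change of 0.12, and at an unadjusted p under 0.05 there were 2 higher and 1 lower, where 23.7% and 0.55% of all genes were. Surf1, an assembly factor of complex IV, gave 36.0, 40.0 and 39.3 TPM against 29.1, 31.4 and 29.3, with a log2 fold change of 0.35 (limma adjusted p = 0.171). Of 17 genes of electron carriers, 15 were positive and 2 negative (median 0.15), of 14 citric acid cycle enzymes 11 and 3 (median 0.20), and of 15 regulators of mitochondrial biogenesis 14 and 1 (median 0.37, against 0.26 for all genes). The median of the regulators was 0.22 without WT replicate 3, against 0.20 for all genes. At an unadjusted p under 0.05 these lists held 1, 2 and 3 higher genes and 0 lower, shares below the 23.7% of all genes that were higher.

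Among the carriers, Coq8a, a kinase-like protein needed for ubiquinone synthesis, gave 491, 645 and 450 TPM against 347, 288 and 122, with a log2 fold change of 1.18 (limma adjusted p = 0.168) and 0.72 without WT replicate 3. Cycs, cytochrome c, gave 59.1, 53.7 and 48.2 TPM against 54.0, 77.9 and 61.2, with a log2 fold change of -0.25 (limma adjusted p = 0.347). Of the regulators, Ppargc1a, the coactivator that drives mitochondrial biogenesis, had a log2 fold change of 0.15, Nrf1, whose motif is given above, 0.49, and Tfam, which packages mitochondrial DNA, 0.44 (limma adjusted p = 0.624, 0.178 and 0.2). These log2 fold changes were 0.03, 0.39 and 0.25 for Ppargc1a, Nrf1 and Tfam without WT replicate 3. Surf1, Coq8a, Cycs and these regulators were singled out after their values were seen.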

How the data were processed

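Quadriceps poly-A RNA of 6 mouse libraries, 3 homozygous and 3 WT, was measured by stranded RNA-seq, per the labels' protocols. The authors deposited TPM for 105129 transcripts per library, summing to 1000000 in each. The submitters' processing notes name FastQC, Trimmomatic, HISAT2, kallisto and build mm10, with no versions or order. TPM keeps no read totals, so depth is unknown.

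TPM was summed per gene symbol, and a gene was kept if 3 or more libraries reached 1 TPM. limma 3.58.1 in R 4.3.3, with trend and robust options, was fitted on log2(TPM + 1) over 11099 genes, without covariates, with a Benjamini-Hochberg adjusted p threshold of 0.05. A count test had been foreseen for count columns and was not used, since the columns hold TPM. Fold changes on this scale understate changes of low genes. The fit was tested on simulated data. Paralogue ratios were compared on log2(TPM + 1) by exact permutation over libraries. Coordinates, lengths and transcript types came from GENCODE M21 (103723 transcript rows matched by ID), and promoters from RefSeq.

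The members and lists were chosen with earlier results of these data known. Named genes were the core subunits (1 of them is not reported here), the paralogue pairs, the members with the highest and lowest fold change in each complex and the 3 with the smallest p in each direction; others are named as chosen after their values were seen, including Ndufs4 and Atp5l, named as 2 of the 6 members without overlap. Alternatives covered scaling, filter, pseudocount, mitochondrial rows, isoforms, library weights, a replicate block and each library left out. Protein sequences were not used here. Atp5sl had no coordinates under that symbol.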

Additional observations from a re-analysis of the deposited data

How the results depend on the processing

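No member passed the limma threshold under any of 16 alternatives, and the lowest adjusted p of a named gene was 0.064, with array weights. WT replicate 3 was weighted at 0.199 there, and that fit called 810 genes, none of them members; the other fits on 6 libraries called 0. Leaving out each library in turn, 0 to 2 genes passed. Members whose groups do not overlap, in either direction, numbered 6 in the main count (7.32%, against 35.5% of all genes), 3 with median centring (3.66% against 15.2%), 3 with the length trend removed (3.66% against 14.6%) and 6 to 19 when a library was left out. They numbered 19 without homozygous replicate 3 (23.2% against 43.2%), 18 without WT replicate 3 (22.0% against 44.6%) and 10 without WT replicate 1 (12.2% against 47.0%). The medians of complexes I, III, IV and V relative to all genes stayed negative in every alternative, while that of complex II ran from -0.10 to 0.16. With the replicate number as a replicate block, 0 members and 0 genes passed. Deviations of same-numbered libraries correlated at -0.07, 0.06 and -0.01, and those of differently numbered libraries at -0.14 to 0.13. With 3 libraries per group these values cannot decide whether the numbers pair the libraries. The removal of a length trend and the restriction to protein-coding transcripts were chosen after seeing the data.

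Log2 fold changes of named genes relative to all genes changed sign in 80 of 656 comparisons; the cause was not tested. With quantile normalization, the sign changed for Atp5a1 (0.12), Atp5b (0.074), Atp5c1 (0.12), Cox6a1 (0.022), Cox6a2 (0.060), Cox8a (0.038), Cox8b (0.10), Ndufv1 (0.014), Sdhb (0.086) and Uqcrc2 (0.052). Without the filter on low values, the sign changed for Atp5a1 (0.093), Atp5c1 (0.098), Atp5g2 (0.11), Cox6a1 (0.13), Cox7a2 (0.019), Cox8a (0.13), Ndufs1 (0.024), Ndufs3 (0.0017), Ndufv1 (0.11), Sdhb (0.13), Uqcrc2 (0.14) and Uqcrfs1 (0.026). With a pseudocount of 0.1, the sign changed for Ndufb5 (-0.031) and Sdhc (-0.017). With array weights, the sign changed for Cox6a1 (0.15), Cox8a (0.098) and Sdhc (-0.016). On the most abundant isoform, the sign changed for Atp5a1 (0.0088), Atp5b (0.16), Atp5sl (-0.20), Cox6a1 (0.037), Cox8a (0.0079), Ndufb5 (-0.072) and Ndufv1 (0.18). With a length trend removed, the sign changed for Atp5c1 (0.054), Atp5g2 (0.082), Cox6a1 (0.12), Cox7a2 (0.0028), Cox8a (0.12), Ndufv1 (0.027), Sdhb (0.080) and Uqcrc2 (0.033). On protein-coding transcripts only, the sign changed for Atp5b (0.13), Atp5sl (-0.12), Cox6a1 (0.0076), Ndufs1 (0.069) and Ndufv1 (0.0017). When each library was left out in turn, the ranges crossing 0 were those of Atp5a1 (-0.19 to 0.044), Atp5c1 (-0.14 to 0.035), Atp5g1 (-0.28 to 0.030), Atp5g2 (-0.34 to 0.16), Atp5sl (-0.11 to 0.22), Cox5b (-0.36 to 0.036), Cox6a1 (-0.14 to 0.21), Cox7a2 (-0.32 to 0.11), Cox8a (-0.098 to 0.079). Such ranges were also found for Cyc1 (-0.34 to 0.011), Ndufb5 (-0.045 to 0.12), Ndufs1 (-0.29 to 0.0051), Ndufs3 (-0.31 to 0.046), Ndufs8 (-0.45 to 0.030), Ndufv1 (-0.13 to 0.084), Sdhb (-0.17 to 0.13), Sdhc (-0.049 to 0.15) and Uqcrc2 (-0.13 to 0.12). Among the paralogue ratios, leaving out a library moved the log2 difference of Cox4i1 to Cox4i2 from -0.074 to 0.41, of Atp5g1 to Atp5g2 from -0.28 to 0.069 and of Atp5g1 to Atp5g3 from -0.025 to 0.16. With unknown depth, no counting error could be set on members of low level such as Cox4i2.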
